A study of Homo sapiens with 28 samples.

Results

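The regulators of the noncanonical NF-κB pathway were followed through chromatin accessibility maps of myeloma cell lines. The genes were MAP3K14, TRAF3, TRAF2, BIRC2, BIRC3, CYLD, NFKB1, NFKB2, RELB and TNFAIP3. Every accessible region that the deposited annotation assigns to the transcript start of one of these 10 genes was taken, near or far, which gave 55 of 154985 regions. The assay, ATAC-seq, uses a transposase that inserts sequencing adapters where chromatin is open. The groups were 22 untreated lines and 6 of these lines (Karpas620, KMS27, L363, MM1S, OPM2 and RPMI8226) treated with 10 μM lenalidomide and collected on day 3. The labels give the treatment of the untreated lines as none and name no vehicle. Lenalidomide is an immunomodulatory drug of myeloma therapy that redirects the ubiquitin ligase subunit cereblon to new substrates. Each line and condition was assayed once, so a value within a line has counting error only.

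The libraries held between 1599857 and 5564534 counts in untreated lines and between 2168680 and 4248017 after lenalidomide. Values are CPM, the counts of a region scaled to the library's total over all regions, and a region is called open in a library when at least 1 of the library's own peaks lies in it. Of 8 plasma cell marker genes, 7 had a start region open in at least 11 of 22 lines, and of 3 myeloid markers with a region none did. Start regions were open in at least 11 lines for 2 of 6 T cell markers (CD8A in 21 lines and CD247 in 20), 3 of 4 B cell markers, 2 of 3 erythroid markers and 1 of 4 stromal or epithelial markers. The T cell genes CD3E, CD3D and CD3G had medians of 1.62, 2.33 and 0.491 CPM, and TRAT1 had 3.66 CPM. The medians of CD8A and CD247 were 17.4 and 13.8 CPM. The libraries of KMS34 and PE1 were more alike than any other pair, with a Spearman correlation over all regions of 0.81, against 0.68 for the next pair and a median of 0.55. KMS12BM and KMS12PE, which share a name stem, had a correlation of 0.64.

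In the noncanonical pathway the kinase NIK, encoded by MAP3K14, leads to phosphorylation of the NFKB2 product p100. The p100 protein is then processed to p52, which enters the nucleus with RELB. In resting cells a complex of TRAF3, TRAF2 and the ubiquitin ligases cIAP1 (BIRC2) and cIAP2 (BIRC3) keeps NIK low by marking it for degradation. CYLD and TNFAIP3 (A20) remove ubiquitin chains and restrain NF-κB, and NFKB1 encodes p105 and p50 of the canonical arm. Loss of the negative regulators and gain of NIK are known lesions of myeloma.

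Several of these genes are known NF-κB targets, so the promoters with a κB motif are shown first. The κB consensus was searched by name on both strands in RefSeq promoters (GRCh38.p14), each from 250 bases before to 50 bases after a transcript start, with overlapping matches counted separately. RefSeq promoters were found for 9 of the 10 genes, and RELB had no entry. At least 1 promoter of 6 of these 9 genes held a match, namely BIRC3, CYLD, NFKB1, NFKB2, TNFAIP3 and TRAF3, against 7.09% of 27305 genes in the table. Per promoter the shares were 53.3% of 15 and 5.91% of 35116. The 250 bases before the start are printed 5′ to 3′ for 5 of the genes, on the plus strand in each case, with the κB match in capitals.
BIRC3, chr11:102317234-102317483: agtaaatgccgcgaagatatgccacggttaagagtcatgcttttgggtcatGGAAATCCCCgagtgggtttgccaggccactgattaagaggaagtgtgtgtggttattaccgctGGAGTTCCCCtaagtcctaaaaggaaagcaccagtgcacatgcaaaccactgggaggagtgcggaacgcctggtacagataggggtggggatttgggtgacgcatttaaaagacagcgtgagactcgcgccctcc
NFKB2, chr10:102394328-102394577: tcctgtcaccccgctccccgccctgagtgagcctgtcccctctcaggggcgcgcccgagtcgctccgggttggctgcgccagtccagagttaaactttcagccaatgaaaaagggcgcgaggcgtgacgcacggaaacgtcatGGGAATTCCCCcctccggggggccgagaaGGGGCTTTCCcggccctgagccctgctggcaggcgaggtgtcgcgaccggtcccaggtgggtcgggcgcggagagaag
NFKB1, chr4:102501109-102501358: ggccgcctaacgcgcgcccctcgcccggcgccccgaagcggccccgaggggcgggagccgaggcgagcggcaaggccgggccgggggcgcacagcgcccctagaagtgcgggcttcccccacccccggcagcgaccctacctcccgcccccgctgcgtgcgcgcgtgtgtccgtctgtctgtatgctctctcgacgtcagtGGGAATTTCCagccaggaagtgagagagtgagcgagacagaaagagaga
TNFAIP3, chr6:137867009-137867258: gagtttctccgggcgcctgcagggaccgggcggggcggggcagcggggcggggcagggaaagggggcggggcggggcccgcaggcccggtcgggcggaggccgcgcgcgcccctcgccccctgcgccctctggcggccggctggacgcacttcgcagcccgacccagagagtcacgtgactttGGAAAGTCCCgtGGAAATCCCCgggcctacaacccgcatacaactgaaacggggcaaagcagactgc
TRAF3, chr14:102777199-102777448: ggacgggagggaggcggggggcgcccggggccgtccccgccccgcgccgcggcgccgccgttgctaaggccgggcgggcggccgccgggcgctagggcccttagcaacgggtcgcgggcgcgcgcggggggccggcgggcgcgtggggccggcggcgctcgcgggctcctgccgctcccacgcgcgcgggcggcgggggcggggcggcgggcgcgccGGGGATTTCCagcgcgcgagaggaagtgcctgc
The NFKB2 stretch, before the second of 3 listed starts, held 4 matches, of which 3 overlap. BIRC3 and TNFAIP3 each held 2 matches, all on the minus strand, and NFKB1 and TRAF3 held 1 each. No match was found in the listed windows of BIRC2, MAP3K14 or TRAF2. In the central 300 bases of the accessible regions themselves (GRCh37), 9 of the 55 regions (16.4%) held a match, against 6.27% of all regions. Near a start 6 of 25 held a match (24.0%, against 7.19% of all regions near a start). Farther out it was 3 of 30 (10.0%, against 5.93%). A match describes the letters of the window and is not evidence of binding.

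The start region of each gene, the assigned region that covers or lies nearest to a transcript start, with ties going to the higher mean CPM, was compared per kilobase of region over the 22 lines. BIRC3 had the highest mean density, 75.2 ± 48.4 CPM per kb (SD, n = 22), followed by NFKB2 with 59.1 ± 19.5, BIRC2 with 50.5 ± 28.2, MAP3K14 with 48.7 ± 15.1 and NFKB1 with 45.6 ± 43.6. TNFAIP3 had 34.1 ± 13.4, RELB 28.4 ± 9.24 and TRAF2 22.6 ± 17.6 CPM per kb. The place of TRAF2 depends on the choice among its 3 regions over a start, since the narrower one at chr9:139780494-139781031 had 42.8 ± 19.4 CPM per kb, above TNFAIP3 and RELB. TRAF3 and CYLD came last with 12.0 ± 8.27 and 5.0 ± 2.84 CPM per kb. Neighbours in this order differed by less than the larger SD of each pair. Of the 55 regions, 5 were open in all 22 lines, against 3.98% of all regions. All 5 were start regions, of MAP3K14, NFKB1, NFKB2, RELB and TNFAIP3, among 25 member regions within 2500 bp of a start, where the share over all such regions was 13.4%. A further 20 regions were open in a single line (37.1% of all regions), and 2 in none of the untreated lines (8.06%). Single lines could still depart far from the median. Of the 15 member regions within 2500 bp of a start with a mean of at least 5 CPM, 9 had a line below 0.25 times the median (46.1% of 19333 such regions) and 2 had a line over 4 times it (20.3%). At least 1 line had 0 counts at 4 of the 15 (13.7%).

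**Figure D1:**
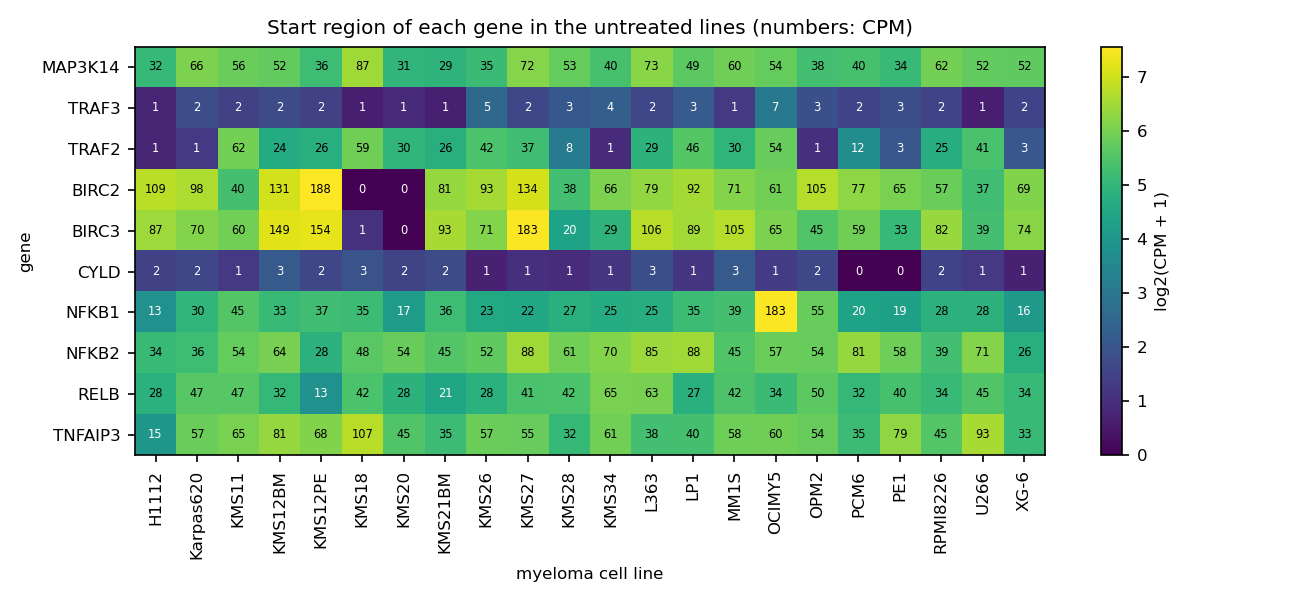
Accessibility at the start region of each gene (rows) in each untreated line (columns), as log2(CPM + 1) in colour with the CPM printed in each cell. BIRC2 and BIRC3 are at or near 0 in KMS18 and KMS20, NFKB1 is highest in OCIMY5 at 183 CPM, and TRAF2 is low in 6 lines.

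BIRC3 and BIRC2, the neighbouring genes for cIAP2 and cIAP1, were among the most accessible starts in most lines and at or near 0 in 2. The BIRC3 start region (ENSG00000023445, GRCh37 chr11:102187672-102188648, over the 5′ UTR, an exon and an intron) had a median of 70.3 CPM and reached 183 CPM in KMS27. KMS20 had 0 counts there among 4653969, which allows up to 0.645 CPM and places it at least 109-fold below the median line. KMS18 had 2 counts, or 1.12 CPM (95% Wilson interval 0.308 to 4.09), 62.7-fold below the median. The BIRC2 start region (ENSG00000110330, chr11:102217302-102218820, over the 5′ UTR, an exon and an intron) had a median of 73.7 CPM, a highest value of 188 CPM in KMS12PE and 0 counts in both KMS18 and KMS20. These zeros correspond to values at least 43.8-fold and 114-fold below the median. The remaining 20 lines ran from 19.9 CPM (KMS28) upward at BIRC3 and from 37.2 CPM upward at BIRC2. KMS18 and KMS20 were named because they were lowest, so their place below the other lines follows from that choice. Few open copies per cell and few cells with open chromatin cannot be told apart in a bulk library. Start regions with a mean of at least 50 CPM were a group set after these zeros were seen. Among them, 2 of 5 of these genes' regions had a line with 0 counts, against 0.785% of 2929 regions overall. The 2 are the neighbouring BIRC2 and BIRC3 starts, which share the zero in KMS20, so they are not independent.

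The stretch of low counts, traced outward from BIRC3 after the zeros were seen as successive regions under 0.1 times the median of the remaining lines, differed in extent between the 2 lines. In KMS20 it ran over 39 successive regions whose median over the 20 remaining lines was at least 5 CPM, from an ARHGAP42 region to a DYNC2H1 region (chr11:100548510-102980756, 2432 kb), with 19 counts where 3875 would match the median of those lines. The stretch was not empty throughout. Its 130 regions with a lower median held 88 counts in KMS20 against 1076 by the same measure, and 3 of them were above that median, among them a BIRC2 intron region (chr11:102245149-102245858) with 26 counts, or 5.59 CPM. The stretch holds regions assigned to YAP1, TMEM123, several matrix metalloproteinase genes and DCUN1D5. Regions of other genes within 1 Mb of the BIRC3 start region summed to 26.2 CPM in KMS20, 0.0300 times the median line. In KMS18 it ran over 7 regions (chr11:102139118-102218820, 79.7 kb) with 2 counts against 352, and the next such regions on either side had counts, a YAP1 region with 16.3 CPM and a BIRC2 intron region with 3.37 CPM. The TMEM123 start region beyond it had 41.5 CPM in KMS18 against a median of 80.3 CPM. The neighbouring regions within 1 Mb summed to 0.387 times the median line in KMS18. Copy number was not measured here, and its part in these values was not tested. Without KMS18 and KMS20 the SD of log2(CPM + 1) fell from 1.83 to 0.81 at the BIRC3 start and from 1.94 to 0.60 at the BIRC2 start, a choice made after their values were seen. The median SD over 19333 start regions of at least 5 CPM was 0.70.

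**Figure D2:**
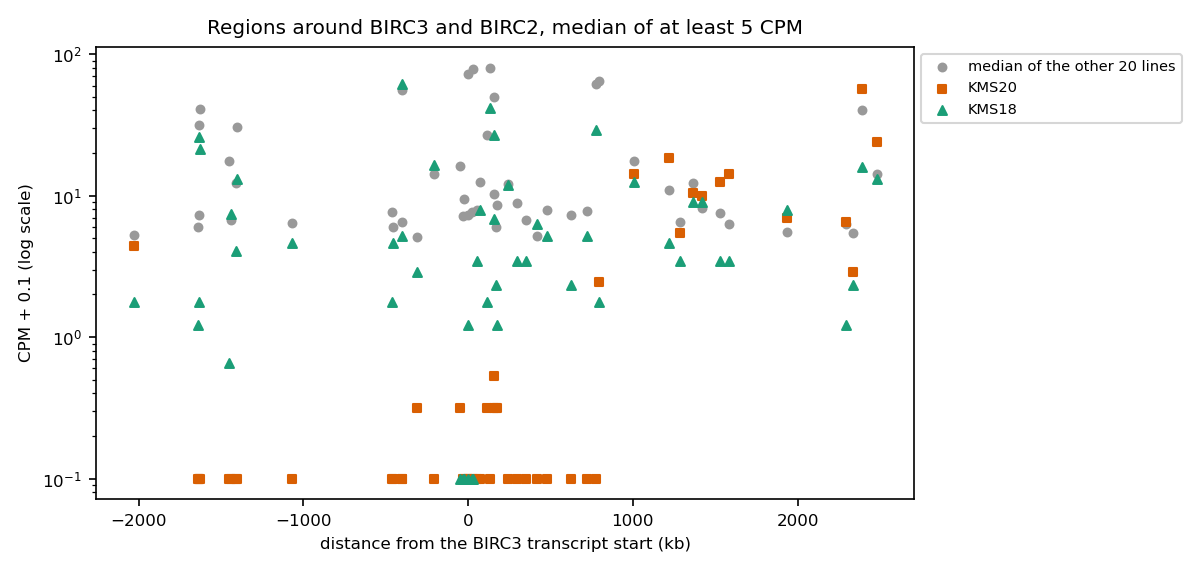
Accessibility (CPM + 0.1, log axis) of regions with a median of at least 5 CPM in the other 20 lines, against distance from the BIRC3 start in kb. Grey points are the median of those lines, squares KMS20 and triangles KMS18. KMS20 lies at or near the bottom over 39 regions, and KMS18 over 7 regions around BIRC3 and BIRC2.

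Beyond the starts, BIRC2 had 7 further regions and BIRC3 had 3. The most accessible distal one of BIRC2 (chr11:102261252-102262026, 27778 bp past a start and in no annotated gene) was open in 18 lines, with a median of 12.1 CPM, a highest value of 24.3 CPM in H1112 and 0 counts in KMS20. A region in the BIRC2 gene body at chr11:102239092-102239579 was open in 15 lines and ran from 0 in KMS20 to 27.9 CPM in PCM6. The ranks of the 22 lines at the 2 start regions gave a Spearman correlation of 0.75, and of 0.67 over the 20 lines without KMS18 and KMS20. The genes lie side by side, so their values share any change in copies of the locus.

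TRAF2, the adaptor that brings the cIAP proteins to TRAF3, had 3 separate regions over annotated starts, and the lines divided most at the innermost. That region (ENSG00000127191, chr9:139796106-139797237, over an exon, an intron and an internal promoter) had a median of 26.0 CPM and was highest in KMS11 with 62.5 CPM. It was below 0.25 times the median in 6 lines, H1112 (0.719 CPM), KMS34 (0.865), OPM2 (1.04), Karpas620 (1.39), XG-6 (3.12) and PE1 (3.13). These 6 libraries gave between 2 and 5 counts each. KMS28 followed with 7.89 CPM, and 14 lines had the region called open. PE1 and KMS34 are the 2 libraries most alike, and 5 lines remain below 0.25 times the median when PE1 is left out. Regions of other genes within 1 Mb were at 0.441 times the median line in H1112 and 0.553 times in PE1, at 0.690 times in Karpas620, and at 0.944 to 1.02 times in KMS34, OPM2 and XG-6. The region at the first TRAF2 start (chr9:139776215-139777296) had a median of 19.1 CPM, with 0.359 CPM (0.0986 to 1.31) in H1112 and 34.4 CPM in KMS20. The region about 4 kb further in (chr9:139780494-139781031) had a median of 22.1 CPM and ran from 5.0 CPM in PE1 to 52.7 CPM in KMS18. H1112 thus had the lowest or second lowest value at each of the 3 regions, while KMS34 was second lowest at the innermost but among the 3 highest at the first, with 28.1 CPM. The one TRAF2 region over 2500 bp from a start (chr9:139805184-139805363) was near the floor, with at most 3.01 CPM. The central 300 bases of the innermost region, on which the lines divide, are printed from the plus strand of GRCh37 and hold no κB match.
TRAF2 internal start, chr9:139796522-139796821: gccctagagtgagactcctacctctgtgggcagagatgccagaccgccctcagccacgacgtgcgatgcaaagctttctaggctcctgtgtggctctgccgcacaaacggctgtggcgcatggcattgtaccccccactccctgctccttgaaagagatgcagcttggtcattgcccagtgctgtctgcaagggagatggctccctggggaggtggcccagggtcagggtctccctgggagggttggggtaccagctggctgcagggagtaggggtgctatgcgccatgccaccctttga

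TRAF3, which holds NIK in the complex, had 4 assigned regions, none of them over a start. The nearest, 789 bp past a transcript start (ENSG00000131323, chr14:103244745-103244936, intronic), had a median of 1.96 CPM and was open in 1 line. An intronic region 10156 bp before a further transcript start (chr14:103285483-103286534) was the most accessible, open in 13 lines with a median of 8.07 CPM. It was highest in OCIMY5 with 38.6 CPM and in KMS18 with 31.4 CPM. It was below 0.25 times the median in KMS26 (0.611 CPM), XG-6 (0.624), L363 (1.02), Karpas620 (1.04) and LP1 (1.30), none with more than 3 counts. Regions of other genes within 1 Mb were at 2.26 times the median line in OCIMY5. In the low lines they were at 0.709 times in L363, 0.918 in KMS26, 0.992 in XG-6, 1.04 in LP1 and 1.52 in Karpas620. The annotation gives 5 further regions within the TRAF3 gene to other symbols, among them one of 14.8 ± 19.2 CPM (SD, n = 22) assigned to AMN. Summed over all 9 regions within the gene, accessibility was lowest in L363 with 6.63 CPM, against a median of 28.9 CPM, and highest in KMS12BM with 98.9 CPM, of which the AMN-assigned region gave 84.2 CPM.

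**Figure D3:**
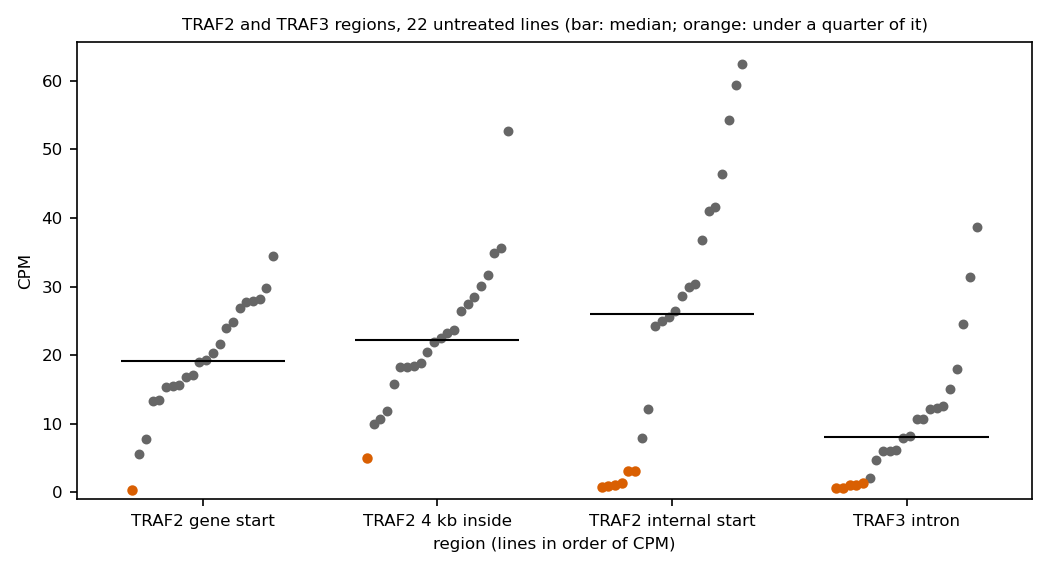
Accessibility in CPM of the 22 untreated lines, sorted within each region, at the 3 TRAF2 start regions and the most accessible TRAF3 intron region. Bars are medians and orange points lie under 0.25 times the median, which holds for 6 lines at the internal TRAF2 start and 5 at the TRAF3 intron.

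MAP3K14, the gene for NIK, had the least variable start region of the 10 genes. Its start region (ENSG00000006062, chr17:43394084-43395114, over an exon, an intron and the promoter) was open in all 22 lines, with a lowest value of 29.2 CPM in KMS21BM, a median of 51.9 CPM and a highest of 87.5 CPM in KMS18. No line was below 0.25 times the median or over 4 times it, and the SD of log2(CPM + 1) was 0.44. The other 6 regions were intronic. The most accessible of them (chr17:43389398-43389878) had a median of 10.7 CPM and ran from 3.57 CPM in L363 to 27.5 CPM in PE1.

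NFKB1 had 13 regions, the most of the 10 genes, and one line stood far above the rest at most of them. The start region (ENSG00000109320, chr4:103422818-103423607, over the 5′ UTR, an exon and an intron) was open in all lines with a median of 27.9 CPM, and OCIMY5 had 183 CPM (169 to 198), 6.58 times the median. The next line was OPM2 with 55.3 CPM and the lowest H1112 with 13.3 CPM. At the gene's end (chr4:103537433-103538250, over an exon, an intron and the 3′ UTR) the median was 2.05 CPM and OCIMY5 had 391 CPM. MM1S (40.5 CPM), KMS26 (40.3), XG-6 (16.2), PCM6 (10.2) and PE1 (8.75) were also over 4 times the median at that region, and regions of other genes within 1 Mb were at 0.820 to 1.07 times the median line in those 5 lines. OCIMY5 was the highest line at 12 of the 13 regions. Without OCIMY5, left out after its value was seen, the SD at the start region fell from 0.76 to 0.50. The gene's annotated start (103422487) lies before the start region, within a region assigned to AF213884.2 (chr4:103421428-103422655). That AF213884.2 region was open in 13 lines and ran from 9.95 to 222 CPM with a median of 18.7 CPM.

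The excess in OCIMY5 reached far beyond NFKB1 on one side. Summed over 12 regions, from the start region to the gene's end, OCIMY5 had 25.3 times the sum of the medians of the 21 remaining lines. Over all 13 regions within the gene span, whatever their assignment, it had 18.5 times the summed CPM of the median line. Regions of other genes within 1 Mb of the start region were at 3.18 times the median line. In the 50 kb before the start region the ratio to the sum of medians was 14.5 (5 regions, among them the one over the gene's annotated start). From 50 to 500 kb before, the ratio was 8.68 (18 regions), and beyond 500 kb before it was 8.29 (70 regions). In the 50 kb after the gene it was 12.3 (6 regions), but from 50 to 500 kb after it was 0.681 (26 regions) and farther on 0.578 (29 regions). The outermost regions examined lay at -1496 and 1493 kb from the NFKB1 start, and the excess was not followed farther. OCIMY5 exceeded every other line in all 5 and all 6 regions of the 50 kb windows before and after, and in 11 of the 12 between them. Copy number was not measured, and its part in this stretch was not tested.

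**Figure D4:**
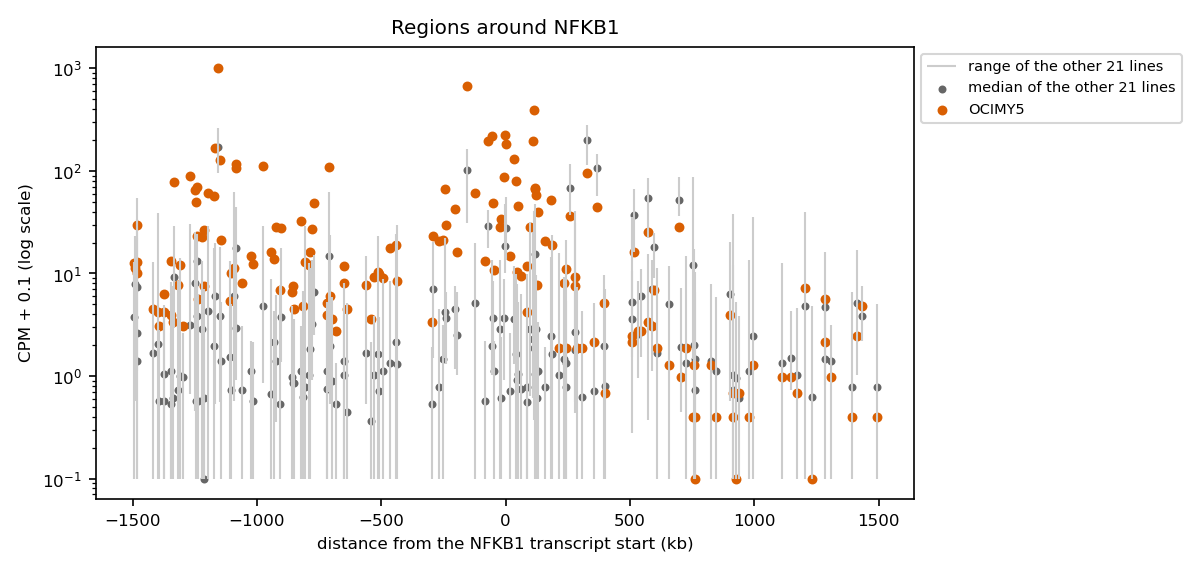
Accessibility (CPM + 0.1, log axis) of all regions against distance from the NFKB1 start in kb. Grey bars span the other 21 lines, dark points are their median and orange points OCIMY5. OCIMY5 lies above the range of the other lines over much of the left side and through the gene, while the summed ratio is 0.681 in the window from 50 to 500 kb after the gene, where OCIMY5 exceeds every other line at 2 of 26 regions.

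NFKB2 and RELB, which encode the p100 and RelB partners of the pathway's effector, were open at their starts in every line. The NFKB2 start region (ENSG00000077150, chr10:104153764-104154716, over the 5′ UTR, an exon and an intron) ran from 25.6 CPM in XG-6 through a median of 54.3 CPM to 88.2 CPM in LP1. Neighbouring regions of other genes within 1 Mb were also low in XG-6, at 0.524 times the median line, and at 1.28 times in LP1. A further NFKB2 region over a start (chr10:104155144-104155671) had a median of 17.6 CPM, with XG-6 again lowest at 3.12 CPM and LP1 again highest at 36.5 CPM. Another (chr10:104158949-104159681) was open in 19 lines and lowest in KMS21BM with 1.19 CPM, against a median of 20.9 CPM. The RELB start region (ENSG00000104856, chr19:45504391-45505725, over the 5′ UTR, an exon and an intron) ran from 13.2 CPM in KMS12PE through a median of 37.2 CPM to 64.9 CPM in KMS34. Regions of other genes within 1 Mb moved the same way, at 0.399 times the median line in KMS12PE and 1.91 times in KMS34. The RELB intron region (chr19:45519364-45520513) was open in 21 lines, from 5.20 CPM in Karpas620 to 45.6 CPM in PE1, with a median of 24.4 CPM. In Karpas620 the neighbouring regions were at 1.07 times the median line.

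The deubiquitinating regulators differed in what the assignment captured. The TNFAIP3 start region (ENSG00000118503, chr6:138187689-138189307, over the 5′ UTR, an exon and an intron) was open in all lines and ran from 14.9 CPM (12.0 to 18.5) in H1112 through a median of 55.7 CPM to 107 CPM in KMS18. KMS28 was next lowest with 32.5 CPM, so H1112 stood below the other lines by more than counting error. Neighbouring regions were at 0.656 times the median line in H1112 and 1.696 times in KMS18. The other 6 TNFAIP3 regions had medians of at most 3.24 CPM. The most accessible of them over 2500 bp from a start (chr6:138213565-138214039, in no annotated gene) was open in 5 lines, from 0 in XG-6 to 9.57 CPM in U266. CYLD had a single assigned region, an intronic one 1756 bp before a transcript start (ENSG00000083799, chr16:50781373-50781703), with a median of 1.64 CPM and no call in an untreated line. The start of CYLD itself is covered by a region assigned to hsa-mir-3181 (chr16:50775394-50776232), which was open in all 22 lines at 72.0 ± 28.9 CPM (SD, n = 22), from 23.0 to 122 CPM. The low CYLD value is therefore a value of the assignment and not of the gene's promoter.

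Likeness was described by the Spearman correlation over the 22 lines between each start region and all other start regions of at least 5 CPM on other chromosomes, 18163 to 18574 candidates per gene. MAP3K14 was most like PKNOX1 (0.91), C21orf2 (0.87) and PTTG1IP (0.86), all on chromosome 21. NFKB2 was most like ISY1 (0.83), SRCIN1 (0.81) and SRPRB (0.79), and RELB most like RPL41 (0.80), COPZ1 (0.80) and PDPR (0.79). TRAF2 was most like ACA59 (0.84), AGPAT3 (0.83) and ZP3 (0.83). NFKB1 had its closest pattern in PDSS2 (0.72), PLB1 (0.70) and LYPD6B (0.67), TNFAIP3 in RP11-637A17.2 (0.79), PRIM1 (0.76) and JAGN1 (0.75), BIRC3 in C21orf91 (0.79), and BIRC2 in C2CD5 (0.80). All values share library depth and line, and the best of many candidates is high by selection.

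Whether lenalidomide changed these genes was asked within the 6 treated lines, with edgeR on the counts and the cell line as a block. Of the 55 regions, 22 had enough counts to be tested, and 1 was raised and 0 lowered at a Benjamini-Hochberg adjusted p below 0.05. Over all 37732 regions tested, 5.40% were called, 4.17% raised and 1.22% lowered, so the count among these genes is near the background. At an unadjusted p below 0.05 there were 4 of 22, against 17.3% of all regions. The median log2 change was 0.06 over the 22 regions and -0.01 over all regions.

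The raised region lay 27040 bp past an NFKB1 transcript start and beyond the gene's end, in no annotated gene (chr4:103541447-103542336). Accessibility went from 10.4 to 18 CPM in Karpas620, from 4.72 to 5.47 in KMS27 and from 15.3 to 33.2 in L363. It went from 22.3 to 40.3 CPM in MM1S, from 47.5 to 71.9 in OPM2 and from 12.7 to 8.24 in RPMI8226. The treated value was higher in 5 of 6 pairs, with RPMI8226 the exception, while the 2 groups overlap because the lines differ widely. The fitted change was 1.51-fold (log2 0.59 ± 0.18 SE, adjusted p = 0.0383 by edgeR). The call was lost with DESeq2 (adjusted p = 0.212), and the adjusted p was 0.109 without Karpas620, 0.183 without L363, 0.209 without MM1S and 0.160 without OPM2. Its central 300 bases, from the plus strand of GRCh37, hold no κB match.
NFKB1 downstream region, chr4:103541742-103542041: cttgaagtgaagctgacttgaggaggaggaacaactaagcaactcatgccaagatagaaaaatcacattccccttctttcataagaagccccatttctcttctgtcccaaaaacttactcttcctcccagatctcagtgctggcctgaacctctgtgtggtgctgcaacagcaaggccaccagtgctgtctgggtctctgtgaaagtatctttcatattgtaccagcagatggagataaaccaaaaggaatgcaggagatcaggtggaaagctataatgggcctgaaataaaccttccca

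None of the start regions passed the threshold. BIRC2 came nearest. Its 6 untreated values ran from 56.7 CPM through a median of 88.4 to 134 CPM, and the treated values from 70.4 through 103 to 134 CPM. The treated value was higher in 6 of 6 pairs, by a fitted 1.18-fold (log2 0.23 ± 0.08 SE), but the adjusted p by edgeR was 0.0853. At BIRC3 the 6 untreated values ran from 44.9 through 93.6 to 183 CPM and the treated ones from 51.5 through 86.3 to 159 CPM, with 3 pairs higher and 3 lower. MAP3K14 went from a median of 63.9 to 63.1 CPM, with 3 pairs higher, and NFKB2 from 49.4 to 57.7 CPM, with 2 pairs higher. RELB had medians of 44.7 and 41.7 CPM, TNFAIP3 of 54.4 and 46.9 CPM and NFKB1 of 29.0 and 32.4 CPM. At the internal TRAF2 start the medians were 26.8 and 29.8 CPM, while OPM2 and Karpas620 were low there with and without the drug. Fitted log2 changes at these starts other than BIRC2 lay between -0.11 and 0.18, with standard errors from 0.09 to 0.18. The start regions of CYLD and TRAF3 had too few counts to be tested.

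**Figure D5:**
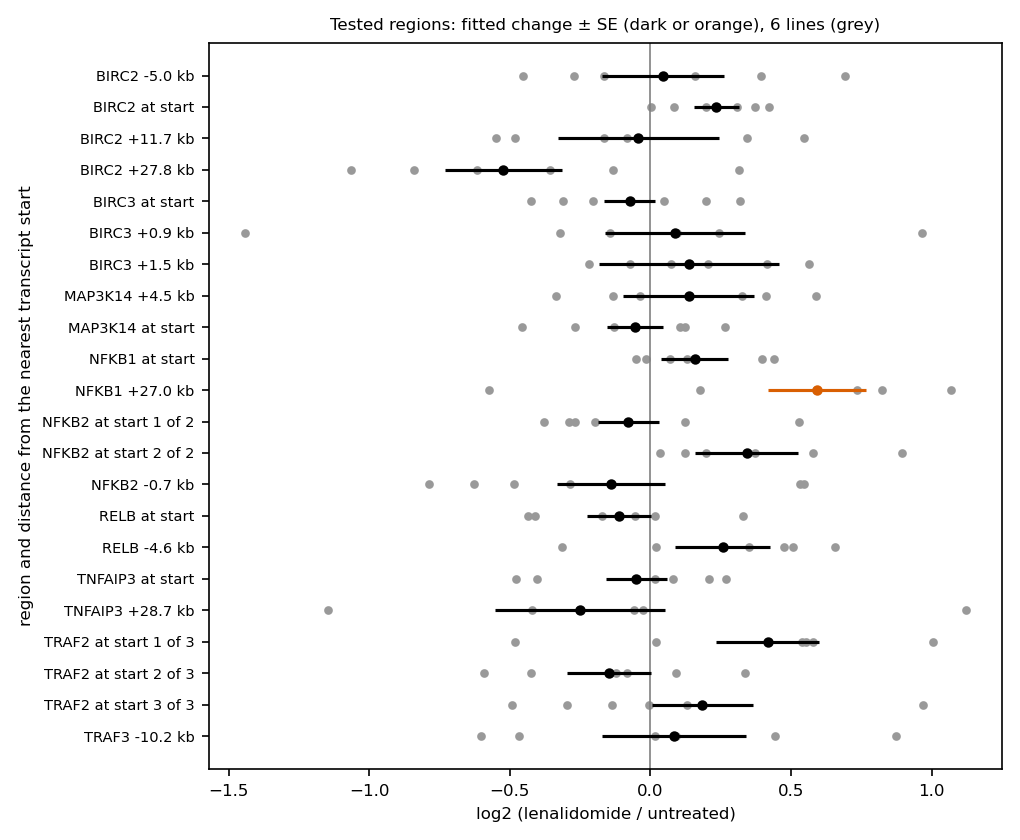
Change after lenalidomide at the 22 tested regions, as log2 of treated over untreated. Grey points are the 6 lines from log2(CPM + 1), dark points with bars the edgeR estimate ± SE, and the orange point is the NFKB1 region 27.0 kb past a start, raised 1.51-fold. The estimates of the remaining regions have adjusted p above 0.05.

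When counts were summed over all regions of a gene, 9 of the 10 genes could be tested and 0 passed the threshold with edgeR or with DESeq2, against 2.13% of 27111 genes with edgeR (1.77% raised and 0.361% lowered). At an unadjusted p below 0.05 there was 1 of the 9, against 14.1% of all genes tested. It was NFKB1, with a log2 change of 0.22 ± 0.09 SE (adjusted p = 0.276 by edgeR, 5 of 6 pairs higher). BIRC2 had 0.15 ± 0.07 (adjusted p = 0.381, 6 of 6 pairs higher). The other 7 genes lay between -0.10 for TRAF3 and 0.10 for TRAF2.

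The wider pathway was described with the same main fits. The alternative fits described below were read for the member genes alone, so calls in these lists rest on the main fits. Of 22 genes of the canonical arm and its inhibitors, 19 could be tested by summed counts, 2 were raised and none lowered, against 1.77% of all genes raised. They were TRAF1, an adaptor induced by NF-κB (1.26-fold, adjusted p = 0.0368 by edgeR), and NFKBIZ, an atypical inhibitor of NF-κB (1.22-fold, adjusted p = 0.0432). The median log2 change was 0.13 for this list and -0.01 over all genes. NFKBIA, the inhibitor IκBα and itself an NF-κB target, was 1.25-fold higher with an adjusted p of 0.0662 by edgeR. One of its regions, 11266 bp before the start (chr14:35885222-35885688), was raised 3.54-fold (adjusted p = 6.2e-05 by edgeR) in 6 of 6 pairs. L363 went from 5.61 to 26.7 CPM, KMS27 from 4.05 to 19.8 CPM and MM1S from 3.78 to 12.7 CPM. The values were low in OPM2 (0.522 to 3.17 CPM), Karpas620 (2.43 to 3.91 CPM) and RPMI8226 (1.42 to 1.88 CPM). Regions of TNIP1 (3.35-fold), BCL3 (1.96-fold) and TRAF1 (1.58-fold) were also raised, the first 2 in 5 of 6 pairs and that of TRAF1 in 6 of 6. In all 4 of 53 tested regions of the list were raised, against 4.17% of all regions. Of 18 NF-κB target genes 14 were tested and 1, TRAF1, was raised. Among 42 tested regions of these targets 3 were raised, those of NFKBIA and TRAF1 already given and one of CCR7, the chemokine receptor (1.81-fold, 5 of 6 pairs). The shares among the targets are to be read against the same 1.77% and 4.17%. Of 11 receptors and ligands 9 were tested and none passed the threshold, with a median log2 change of -0.03. The smallest adjusted p by edgeR was 0.129, for CD40 (1.54-fold). Of 12 tested regions 1 was raised, that at the start of TNFSF13B, the gene for BAFF (1.56-fold, adjusted p = 0.0127 by edgeR). It was higher in 4 of 6 pairs, and went from 16.7 to 15.3 CPM in Karpas620 and from 16.2 to 12.2 CPM in OPM2.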

How the data were processed

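The analysis used 28 ATAC-seq libraries, from 22 untreated lines and 6 lenalidomide-treated counterparts. The submitters' processing notes name GRCh37, Bowtie2 2.2.6, SAMtools 1.7 and MACS2 2.1.0.20151222, which the methods describe for ChIP-seq under a heading that also covers ATAC-seq (alignment, marking of duplicates and peak calling). The regions are a union of peaks. The authors deposited raw counts per region, RPM values per region, which equal the CPM computed here from the counts, and a table read here as the number of a library's own peaks per region, which the files do not define. Removal of duplicates, transposase shift and the counting of reads or fragments are not given in the sources used here. Only autosomal regions were analysed. CPM is not corrected for copy number.

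Regions were assigned by the files' nearest transcript start. Named regions were the start region and the tallest distal region (over 2500 bp) of each gene, the 3 most variable regions of at least 5 CPM, and regions past the threshold. Lines were named at the extremes and below 0.25 or over 4 times the median. Lenalidomide was tested with edgeR 4.0.16 (R 4.3.3, limma 3.58.1): TMM, filterByExpr by treatment, line as block, quasi-likelihood tests and Benjamini-Hochberg adjustment at 0.05 over all regions or genes, after a check on simulated data. Of 200 simulated 2-fold changes, the check recovered 66% per region (9 false calls) and 84.5% per gene (11 false calls). Smaller changes were not simulated. DESeq2 1.42.0 was an alternative. The pairs are the same line, and deviations of the 2 libraries of a line correlated at 0.82 to 0.90. Intervals are 95% Wilson intervals, and 0 counts allow up to 3 counts. Both cover counting error only. The genes, lists and tests were chosen with earlier results of these data known.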

Additional observations from a re-analysis of the deposited data

Results flagged for a closer look

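In 30 sets of 6 paired lines (the start region of each of the 10 genes, untreated, treated and as a change), 1 had a line far from the others by Dixon's criterion, where chance gives about 1.5. After lenalidomide, the NFKB1 start region had 54.7 CPM in OPM2, and the next line had 37.75 CPM. OPM2 had 55.3 CPM there without the drug.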

How the results depend on the processing

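The count of 1 region changed by lenalidomide, raised, became 0 with DESeq2 and 0 without the replicate block, where no region of any gene was called. It became 3, all raised, with no filter on low counts, the additions being low-count regions of BIRC2 and TNFAIP3. Leaving out 1 line at a time gave 0 to 2 changed regions, 0 to 1 raised and 0 to 1 lowered. It was 0 without Karpas620, L363 or MM1S, and 2 without RPMI8226, where a BIRC2 region 27778 bp past a start was lowered (log2 -0.68, adjusted p = 0.0466 by edgeR). Without OPM2 the 1 region called was one of TNFAIP3 in place of that of NFKB1. The causes were not tested. The count stayed at 1 without TMM and with at least 10 counts in each library. The count of 0 changed genes was the same under each of the 13 alternatives run. Regions open in all untreated lines numbered 10 when open meant at least 2 CPM in place of a called peak, 5 without KMS12PE and 7 without KMS18 and KMS20, an alternative added after seeing the data. Of 210 refits of single regions and genes, 204 kept their side of the threshold and 6 lost it, all at the NFKB1 downstream region. The other regions and genes refitted were not called in the main fits, so the 204 mostly count features that stayed uncalled. Libraries with few counts limit single values: 3 counts stand for 0.539 to 1.88 CPM.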

Other observations

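A region 1053 bp before a BIRC2 start (chr11:102216513-102216888), too low to be tested after the filter on low counts, was open in no untreated line and in 1 treated library. In KMS27 it went from 3.04 to 22.6 CPM after lenalidomide, while no other treated line exceeded 3.69 CPM. A TNFAIP3 intron region (chr6:138194442-138194773), also too low to be tested, went from 3.71 to 14.7 CPM in KMS27 and was higher after the drug in 5 of 6 pairs. With no filter on low counts, edgeR gave adjusted p = 0.00855 for the BIRC2 region and 0.0216 for the TNFAIP3 region. Both were picked after their values were seen. Another intron region, in BIRC2 (chr11:102231872-102232700), had 48.6 CPM in OCIMY5, against 7.29 CPM in the next line.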
